A study of Mus musculus with 2 samples.

Results

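The clearance of dying cells was described here through 10 genes, the TAM receptors *Tyro3*, *Axl* and *Mertk*, their ligands *Gas6* and *Pros1*, the scavenger receptor *Cd36*, the engulfment genes *Rac1*, *Elmo1* and *Elmo3*, and the lipid exporter *Abca1*. The genes were matched by symbol, and all 10 were found among the 25810 genes listed for each library. They were chosen by their role in clearance and because *Tyro3* was known to stand much higher in the *Igfbp7-/-* library, so the difference between the libraries is given as a description and not tested. RNA-Seq had been performed on mammary epithelial cells of inguinal glands at lactation day 3, with 1 library from WT mice and 1 library from *Igfbp7-/-* mice, which lack the first coding exon of the gene in every tissue. The labels give the C57BL/6 background for both groups, whereas the methods state that the knockout was made on CD1, and the number of animals behind each library and their age were not given in the sources used here. Lineage positive cells had been removed from both preparations with magnetic beads (CD45, CD31 and Ter119 in the methods, with CD35 written for CD31 in the labels). The targeted gene *Igfbp7* was covered by 5224 reads in WT and by 37 in *Igfbp7-/-*.

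A dying cell displays phosphatidylserine on its surface. *Gas6* and protein S (the product of *Pros1*) bind this lipid and bridge it to *Tyro3*, *Axl* or *Mertk*, tyrosine kinases that trigger uptake and dampen inflammatory signalling. An Elmo protein together with a Dock protein then loads GTP onto *Rac1*, which drives the actin cup around the corpse, and the lipid of the digested corpse leaves the phagocyte through *Abca1*. In the mammary gland the epithelium itself takes up dying neighbours and shed fat globules, above all after weaning.

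The 3 receptors share a short coding stretch in the kinase domain that marks the family, and it is printed to show how far the transcripts differ there. In the NCBIM37 build, which is the mm9 build that the labels name, it lies in exon 18 of 20 of Tyro3-001 (chr2:119638642-119638662, plus strand), exon 18 of 20 of Axl-001 (chr7:26546460-26546480, minus strand) and exon 17 of 19 of Mertk-001 (chr2:128618785-128618805, plus strand). The stretches are given 5′ to 3′ on the transcript strand, with capitals for bases unlike *Tyro3*.
Tyro3: aagtggctggccctggagagc
Axl: aagtggAtTgcTAtTgagagT
Mertk: aagtggAtCgccAtCgagagc

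In this stretch of 21 bases, *Axl* differed from *Tyro3* at 6 bases and *Mertk* at 4. No stretch of 35 bases, the shorter read length, occurred in exactly the same form in a coding transcript of another gene for 9 of the 10 genes, and for *Elmo1* 9 of 3774 such stretches (0.238%) did. With the longer read length of 75 bases there were 0 shared stretches for any of the 10. Reads with mismatches, pseudogenes and non-coding transcripts were not part of this check. The exons of 9 genes overlapped no exon of another annotated gene, and those of *Elmo3* overlapped *Mir328* on the opposite strand over 12 bases.

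The number of mapped reads, worked out from the deposited counts and RPM, was similar in both libraries, with 34327854 in WT and 35016847 in *Igfbp7-/-*. Of these, 28262015 (82.3%) in WT and 25306845 (72.3%) in *Igfbp7-/-* fell on genes with a symbol. Levels are given as RPM, the reads of a gene per 1000000 mapped reads, and between genes only as RPKM, which is RPM per kilobase. The log2 ratio of *Igfbp7-/-* to WT was computed after adding 0.1 RPM to both values, over the 14026 genes that reached 1 RPM in either library, and a gene was called higher or lower at a ratio of 1.5 (0.585 on the log2 scale). The intervals given are 95% intervals on read pairs, since most low counts were even (75.8% and 74.1% of the counts from 1 to 20). They cover counting error only, leave out the added 0.1 RPM and say nothing of the variation between animals, which 1 library per genotype cannot show. Fewer cells of a type and less RNA per cell cannot be told apart in such bulk libraries.

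Of the 10 genes, 2 were called higher in *Igfbp7-/-* (*Tyro3* and *Elmo3*), 2 were called lower (*Pros1* and *Elmo1*) and 6 lay within 1.5-fold. Over all genes kept, 21.4% were called higher, 23% were called lower and 44.5% were called in either direction, and nothing is read from the counts of the 10, which were chosen with this contrast known. The median log2 ratio of the 10 was -0.41, beside 0.03 over all genes kept, with 7 of the 10 below the latter value.

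**Figure D1:**
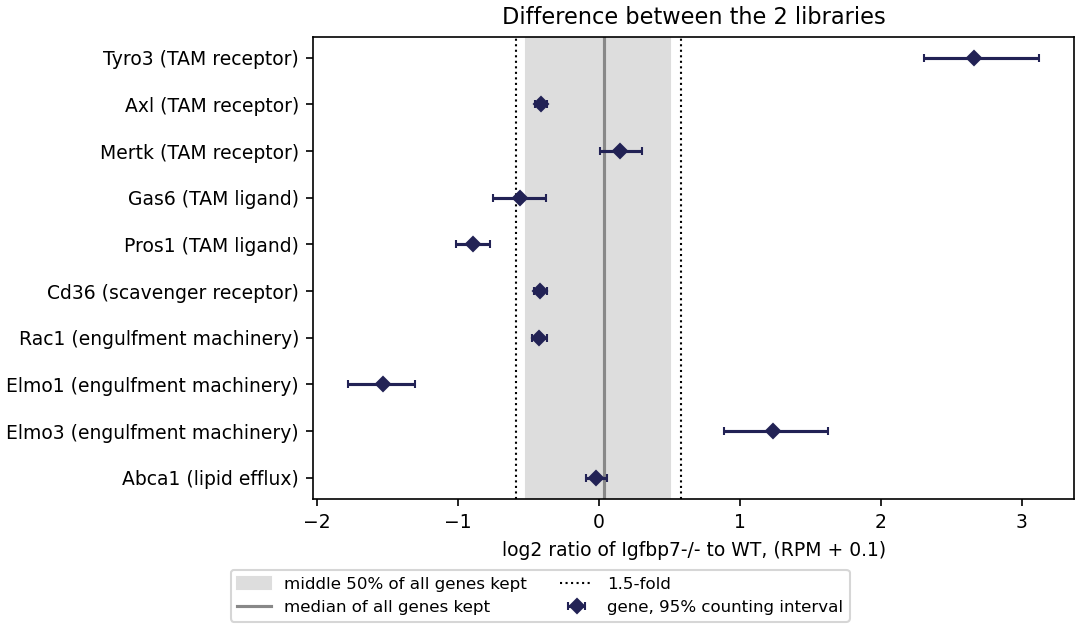
Log2 ratio of Igfbp7-/- to WT (horizontal axis, RPM + 0.1) of the 10 genes (vertical axis, with their role) as diamonds with 95% counting intervals, over a grey band for the middle 50% of all genes kept (-0.52 to 0.51), a grey line for their median (0.03) and dotted lines at 1.5-fold. Tyro3 at 2.66 and Elmo3 at 1.24 lie to the right of the dotted lines, and Pros1 at -0.89 and Elmo1 at -1.53 to the left.

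*Tyro3* was covered by 119 reads in WT (3.47 RPM) and by 785 reads in *Igfbp7-/-* (22.4 RPM). Its log2 ratio was 2.66 (counting interval 2.31 to 3.12), a 6.31-fold higher level. This is rank 80 from the top among 14026 genes and rank 38 among the 8201 genes that reached 10 RPM in either library. *Tyro3* reached 10 RPM in *Igfbp7-/-* only. The genes were chosen because of this difference, so the ranks describe it and lend it no support. The difference amounts to 18.95 RPM. *Axl*, a receptor that *Gas6* but not protein S activates, was covered by 18602 reads in WT (541.9 RPM) and by 14270 reads in *Igfbp7-/-* (407.5 RPM). It was 1.33-fold lower in *Igfbp7-/-*, a log2 ratio of -0.41 (-0.46 to -0.37), and its difference of -134.4 RPM was larger in size than that of *Tyro3* although the ratio stayed within 1.5-fold. *Mertk*, the receptor that macrophages use for apoptotic cells, was covered by 1373 reads in WT (40 RPM) and by 1558 reads in *Igfbp7-/-* (44.5 RPM), with a log2 ratio of 0.15 (0.00 to 0.30). The 3 receptors thus did not move together, and among them *Tyro3* alone was called.

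Per length, *Axl* was the most abundant of the receptors in both libraries. It stood at 131.6 RPKM in WT and 98.9 RPKM in *Igfbp7-/-*, *Mertk* at 11.2 and 12.5 RPKM, and *Tyro3* at 0.866 and 5.60 RPKM. Of the summed RPKM of the 3 receptors, *Axl* took 91.6% in WT and 84.5% in *Igfbp7-/-*, *Mertk* took 7.81% and 10.7%, and *Tyro3* took 0.603% and 4.78%. *Tyro3* was therefore the least abundant receptor in both libraries, also in the one where it was higher. Ratios between genes of 1 library do not depend on how the libraries are scaled to each other. The ratio of *Tyro3* to *Axl* was 0.00658 (0.00500 to 0.00850) in WT and 0.0566 (0.0510 to 0.0626) in *Igfbp7-/-*, an 8.66-fold difference (conditional exact interval 6.56 to 11.61). For *Tyro3* to *Mertk* the ratio was 0.0771 in WT and 0.448 in *Igfbp7-/-*, a 5.85-fold difference (4.35 to 7.97). *Mertk* to *Axl* shifted less, from 0.0853 to 0.126 (1.48-fold, 1.33 to 1.65).

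**Figure D2:**
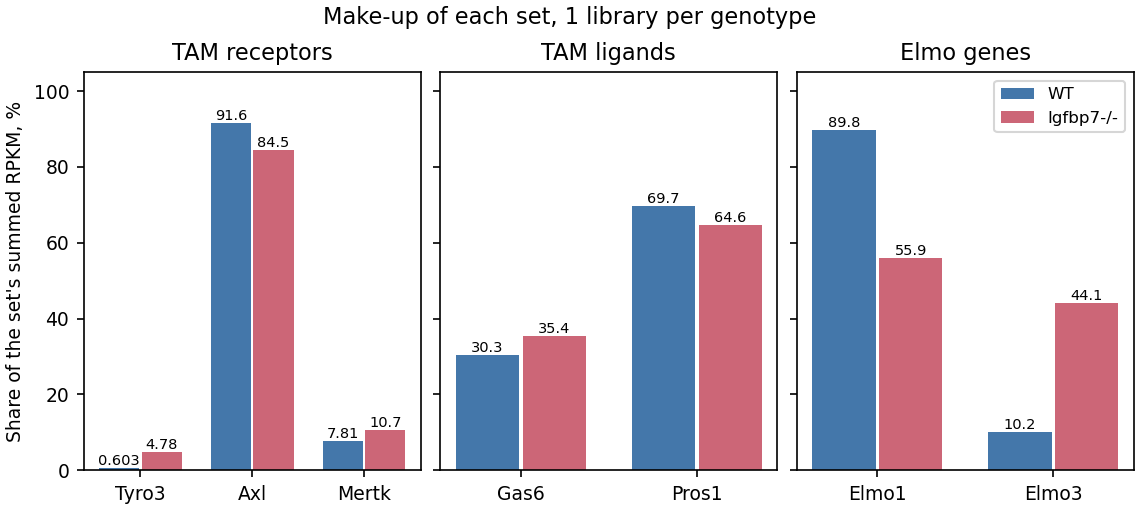
Share (percent, vertical axis from 0) that each gene took of the summed RPKM of its set, for the TAM receptors, the TAM ligands and the Elmo genes, in the WT (blue) and the Igfbp7-/- (red) library. Axl holds 91.6% and 84.5% of the receptor sum, and the Elmo sum changes from 89.8% Elmo1 to 55.9%.

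Both ligands were lower in *Igfbp7-/-*. *Pros1* was covered by 3325 reads in WT (96.9 RPM) and by 1826 reads in *Igfbp7-/-* (52.1 RPM), a log2 ratio of -0.89 (-1.01 to -0.78) and a 1.86-fold lower level. *Gas6* was covered by 1146 reads in WT (33.4 RPM) and by 793 reads in *Igfbp7-/-* (22.6 RPM), a log2 ratio of -0.56 (-0.75 to -0.37). *Pros1* thus passed the threshold of 1.5 with its whole interval. *Gas6* fell just short of the threshold, and its interval held it. With ratios centred on their median, or with RPM recomputed without the 20 genes of highest RPM, *Gas6* was called lower as well. *Pros1* was the more abundant ligand per length in both libraries, at 29.6 and 15.9 RPKM against 12.9 and 8.73 RPKM for *Gas6*, and the summed RPKM of both was 42.5 in WT and 24.7 in *Igfbp7-/-*. The ratio of *Gas6* to *Pros1* went from 0.434 (0.394 to 0.478) to 0.547 (0.485 to 0.617), a 1.26-fold difference (1.08 to 1.47).

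The engulfment genes split in direction. *Elmo1* was covered by 1134 reads in WT (33.0 RPM) and by 398 reads in *Igfbp7-/-* (11.4 RPM), a log2 ratio of -1.53 (-1.78 to -1.30) and a 2.89-fold lower level. Its paralog *Elmo3* was covered by 178 reads in WT (5.19 RPM) and by 433 reads in *Igfbp7-/-* (12.4 RPM), a log2 ratio of 1.24 (0.89 to 1.62) and a 2.36-fold higher level. The ratio of *Elmo3* to *Elmo1* per length was 0.114 (0.0901 to 0.143) in WT and 0.790 (0.648 to 0.962) in *Igfbp7-/-*, a 6.90-fold difference (5.10 to 9.40). *Elmo1* took 89.8% of the RPKM of this pair in WT and 55.9% in *Igfbp7-/-*. Which of them stood higher in *Igfbp7-/-* depended on the length assumed: the deposited RPKM of *Elmo1* rests on 2221 bases, whereas its longest annotated coding transcript has 3639, and with the latter the ratio was 1.29 in favour of *Elmo3* (0.187 in WT). The difference between the libraries does not depend on that length. *Rac1*, the GTPase that both act on, was covered by 12238 reads in WT (356.5 RPM) and by 9320 reads in *Igfbp7-/-* (266.2 RPM), with a log2 ratio of -0.42 (-0.48 to -0.37).

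*Cd36*, a scavenger receptor that binds oxidised lipids and is also a major protein of the milk fat globule membrane, was covered by 18736 reads in WT (545.8 RPM) and by 14323 reads in *Igfbp7-/-* (409.0 RPM). Its log2 ratio was -0.42 (-0.46 to -0.37), which is 1.33-fold lower. Products of *Btn1a1*, *Xdh* and *Mfge8* also belong to the fat globule membrane, and these genes were picked after their values were seen. *Btn1a1* stood at 507.2 RPM in WT and 498.1 RPM in *Igfbp7-/-*, *Xdh* at 409.6 and 517.2 RPM, and *Mfge8* at 832.4 and 1872 RPM. *Abca1*, which exports cholesterol, was covered by 5635 reads in WT (164.2 RPM) and by 5679 reads in *Igfbp7-/-* (162.2 RPM), a log2 ratio of -0.02 (-0.09 to 0.06). This was the log2 ratio nearest to 0 of the 10 with the deposited RPM, whereas without the 20 highest genes that of *Mertk* was (0.01, beside -0.16 for *Abca1*).

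**Figure D3:**
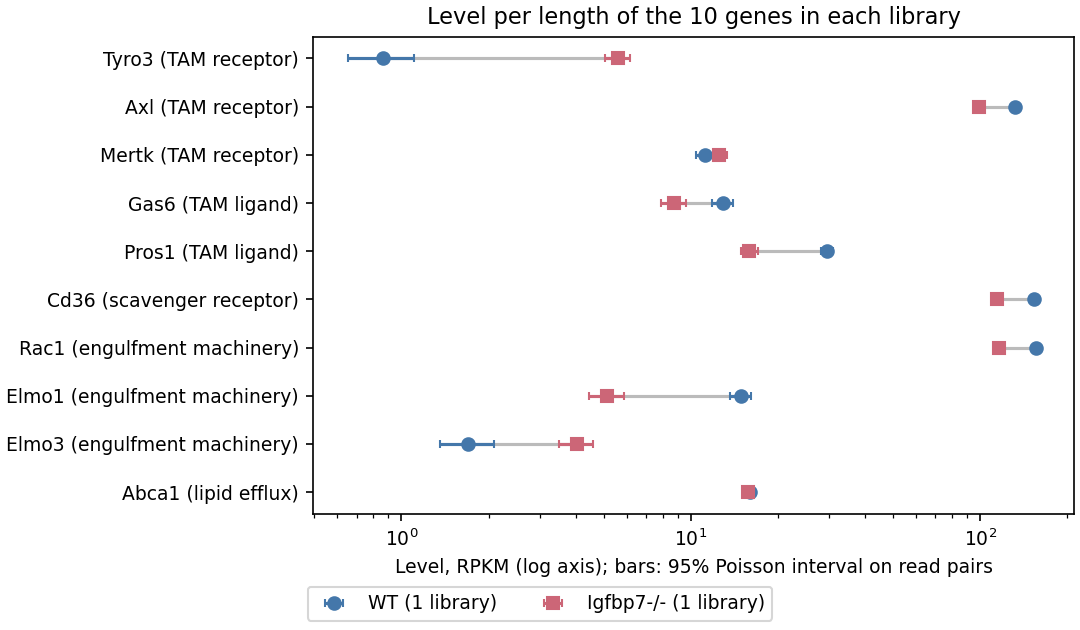
Level per length (RPKM, log axis) of the 10 genes in the WT (blue circles) and the Igfbp7-/- (red squares) library, 1 library each, with 95% Poisson intervals on read pairs and a grey line joining both values. Rac1, Cd36 and Axl lie at 98.9 RPKM or above in both libraries, while Tyro3 moves from 0.866 to 5.60 RPKM.

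Ranked by RPKM, *Rac1* (156.1), *Cd36* (153.1), *Axl* (131.6), *Pros1* (29.6), *Abca1* (16), *Elmo1* (14.9), *Gas6* (12.9), *Mertk* (11.2), *Elmo3* (1.69) and *Tyro3* (0.866) followed each other in WT. The interval of the ratio between neighbours held 1 for *Rac1* to *Cd36* (0.987 to 1.05) and *Abca1* to *Elmo1* (0.983 to 1.18), and lay above 1 for the other neighbours, narrowly so for *Elmo1* to *Gas6* (1.03 to 1.30) and *Gas6* to *Mertk* (1.025 to 1.28). In *Igfbp7-/-* the order was *Rac1* (116.5), *Cd36* (114.7), *Axl* (98.9), *Pros1* (15.9), *Abca1* (15.8), *Mertk* (12.5), *Gas6* (8.73), *Tyro3* (5.60), *Elmo1* (5.12) and *Elmo3* (4.04). There the interval held 1 for *Rac1* to *Cd36* (0.979 to 1.05), *Pros1* to *Abca1* (0.935 to 1.09) and *Tyro3* to *Elmo1* (0.920 to 1.30). With the longest annotated transcript as length, *Elmo1* came eighth in WT (9.08 RPM per kilobase, after *Mertk* with 9.30) and last in *Igfbp7-/-* (3.12, after *Elmo3* with 4.04), and *Cd36* and *Rac1* changed places in *Igfbp7-/-*, as did *Pros1* and *Abca1*. *Tyro3* stood last of the 10 in WT and eighth in *Igfbp7-/-* with either length. The genes whose log2 ratio lay nearest to that of *Tyro3*, among genes with a mean RPM within 1.5 times its own, were *Prss22* (3.20 RPM in WT, 20.6 RPM in *Igfbp7-/-*), *Six4* (2.62 and 17.3 RPM) and *Tprn* (4.69 and 30.8 RPM). They differed from *Tyro3* by 0.014, 0.021 and 0.032 on the log2 scale, over 2 libraries.

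The scaling of the libraries bears on the 4 genes between -0.56 and -0.41. With reads on genes with a symbol as the denominator, the median log2 ratio of all genes kept moved by 0.19, and without the 20 highest genes it moved by -0.15. The shares of all genes called higher and lower were then 30.6% and 18.6% with the former, and 16.6% and 28.1% with the latter. *Axl* then ranged from -0.55 to -0.22, *Cd36* from -0.56 to -0.23, *Rac1* from -0.56 to -0.23 and *Gas6* from -0.70 to -0.37, all lower in *Igfbp7-/-* under each of the 8 alternatives that alter a ratio. *Tyro3* ranged from 2.39 with a pseudocount of 1 RPM to 2.85, *Elmo3* from 1.10 to 1.43 and *Elmo1* from -1.675 to -1.35, so these calls were kept throughout, also at a ratio of 2. *Pros1* ranged from -1.035 to -0.70 and missed the ratio of 2. *Abca1* changed sign with the scaling, from -0.16 to 0.17.

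**Figure D4:**
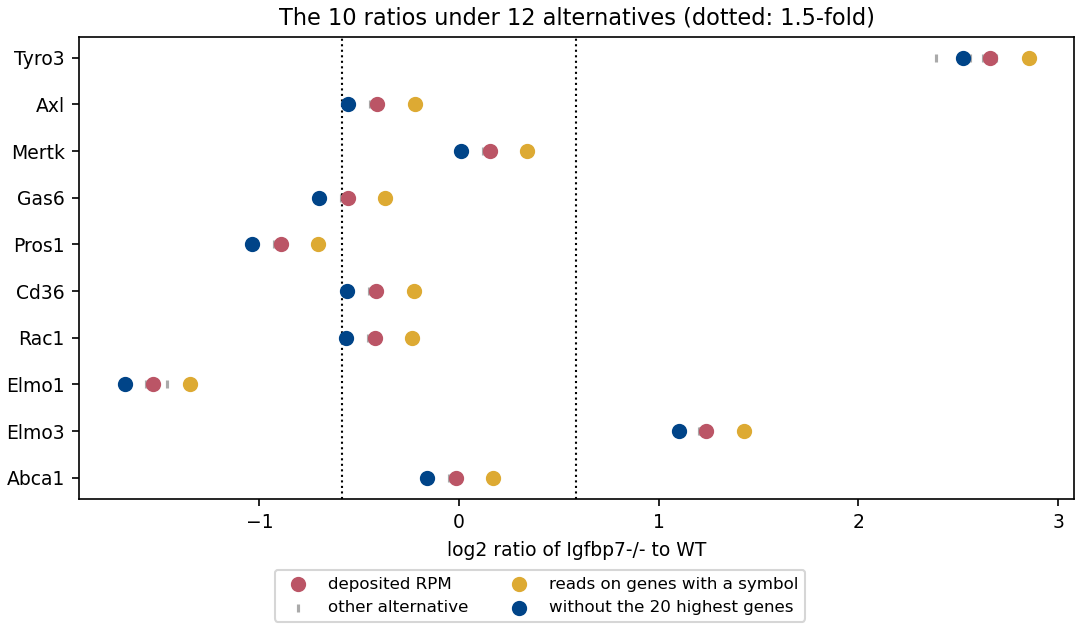
Log2 ratio of Igfbp7-/- to WT (horizontal axis) of the 10 genes under the deposited RPM (red) and 12 alternatives, of which reads on genes with a symbol (yellow) and RPM without the 20 highest genes (blue) are coloured and the others are grey ticks. Tyro3, Elmo1, Elmo3 and Pros1 stay outside the dotted 1.5-fold lines under each alternative, while Gas6 lies on either side of the line.

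Other genes of the pathway were read from 7 hand-written lists, which hold 113 genes kept. Over all genes kept, 21.4% were called higher and 23% lower, and nothing is read from list counts near these shares. Among 17 genes of TAM signalling and ligand maturation, 3 were called higher and 4 lower (17.6% and 23.5%), with a median log2 ratio of -0.08. These calls include *Vkorc1l1* (higher, 0.83) and *Ggcx* (lower, -0.59), which serve the maturation of the ligands. *Ggcx* passed the threshold narrowly, and its interval (-0.81 to -0.37) held it. *Plcg2*, a phospholipase downstream of tyrosine kinases, went from 9.001 RPM in WT to 37.5 RPM in *Igfbp7-/-* (log2 ratio 2.05), and the abundant *Pik3r1*, a regulatory subunit of PI3 kinase, from 132.1 to 198.2 RPM (0.58). Of the 16 other phagocytic receptors kept, 9 were called lower and 2 higher (56.2% and 12.5%, median -0.705), or 9 and 1 without the 20 highest genes. Among the fewer of them that reached 10 RPM, 3 were called lower and 2 higher, beside 20.4% and 20.7% of all genes at that minimum. The lowest ratio among those that reached 10 RPM was that of *Havcr2* (15.6 RPM in WT, 2.97 RPM in *Igfbp7-/-*), which encodes Tim-3, while the integrin *Itgav* was higher (253.1 and 704.8 RPM, log2 ratio 1.48) and *Cd14* stood at 469.9 and 677.4 RPM.

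The 10 other bridging proteins kept split into 3 called higher and 4 called lower (median -0.35). These are 30% and 40%, beside 21.4% and 23% over all genes kept. *Anxa1*, a phosphatidylserine-binding annexin, went from 180.2 RPM in WT to 519.9 RPM in *Igfbp7-/-* (log2 ratio 1.53), *C1qa* of the complement system from 21.9 to 3.88 RPM (-2.47), and *Thbs1*, the most abundant, from 2016 to 2595 RPM (0.36). *Mfge8*, which bridges phosphatidylserine to integrins and coats milk fat globules, was singled out after its values were seen, at 832.4 and 1872 RPM (1.17). The list of lipid exposure and signals against uptake also holds the channel *Panx1*, which is among its lower calls. In it, 1 of 13 genes was called higher and 3 lower (7.69% and 23.1%, median -0.39). The scramblase *Plscr1* stood at 145.2 and 282.9 RPM, *Panx1* at 25.3 and 6.77 RPM and *Cd24a* at 549.1 and 525.4 RPM. These counts turned with the scaling, to 3 higher and 2 lower with reads on genes with a symbol as denominator and 1 higher and 5 lower without the 20 highest genes.

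In the engulfment list, 4 of 25 genes were called higher and 6 lower (median -0.01). These are 16% and 24%, near the 21.4% and 23% over all genes kept. *Dock2*, the partner of *Elmo1* in leukocytes, went from 11.6 RPM in WT to 5.03 RPM in *Igfbp7-/-* (log2 ratio -1.19), *Vav2*, an exchange factor for Rac, from 4.89 to 10.9 RPM (1.14), and *Cdc42* was near equal at 295.7 and 292.7 RPM. Phagosome maturation had 2 of 15 genes called higher and 0 called lower (13.3% and 0%, median 0.11). With RPM recomputed without the 20 highest genes it had 1 and 2. *Vps33a* stood at 11.8 and 21.8 RPM, *Rab5b* at 52.6 and 36.5 RPM and *Rab5a* at 84.7 and 94.4 RPM. Around lipid efflux, 2 of 17 genes were called higher and 7 lower (11.8% and 41.2%, median -0.43). *Apoe*, which accepts the lipid that *Abca1* exports, went from 162.2 to 50.9 RPM (log2 ratio -1.67), *Pltp*, a phospholipid transfer protein, from 30.3 to 8.91 RPM (-1.75), and *Rxra*, the partner of the LXR receptors that act on *Abca1*, from 40.7 to 76.4 RPM (0.91).

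**Figure D5:**
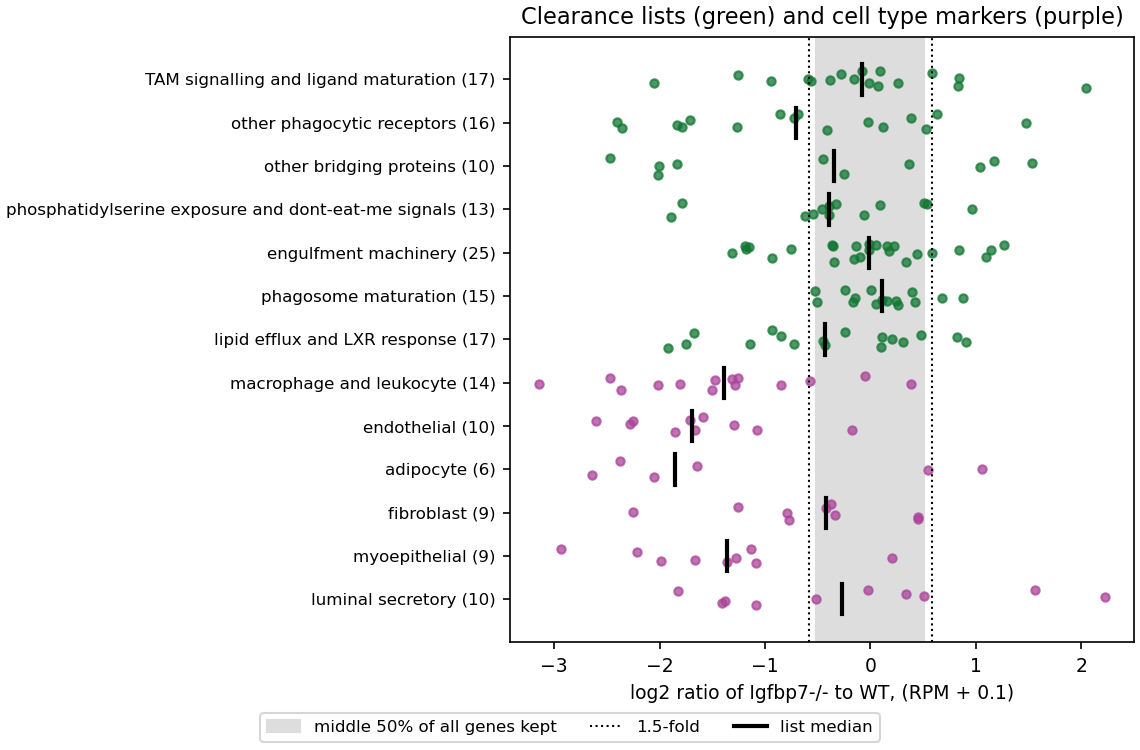
Log2 ratio of Igfbp7-/- to WT (horizontal axis, RPM + 0.1) of each gene kept in 7 clearance lists (green) and 6 cell type marker lists (purple), with the number of genes in parentheses the list median as a black bar, a grey band for the middle 50% of all genes kept and dotted lines at 1.5-fold. The leukocyte, endothelial, adipocyte and myoepithelial medians lie between -1.85 and -1.36, to the left of the band.

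Markers of several cell types differed between the libraries. With 1 depleted preparation per genotype, genotype cannot be told apart from differences in how the cells were prepared. For the lineages that the beads targeted, these include the completeness of depletion. Called lower were 78.6% of the leukocyte, 90% of the endothelial, 44.4% of the fibroblast and 66.7% of the adipocyte markers. Of the myoepithelial and luminal secretory markers, 88.9% and 40% were. Called higher were 16.7% (adipocyte), 20% (luminal secretory) and 0% (other lists), beside 21.4% higher and 23% lower over all genes kept. Of 14 macrophage and leukocyte markers, 11 were called lower and 0 higher in *Igfbp7-/-*, and their summed levels were 325.9 RPM (WT) and 121.1 RPM (*Igfbp7-/-*), with *Laptm5* as the most abundant (72.7 and 20.7 RPM). The list shares *C1qa*, *C1qb* and *Itgam* with the clearance lists. Of 10 endothelial markers, 9 were called lower (1397 and 441.8 RPM summed, with *Cdh5* at 583.7 and 183.5 RPM), and of 9 fibroblast markers 4 were (10801 and 6102 RPM, with *Col3a1* at 4670 and 1950 RPM). *Ptprc*, the gene of CD45, stood at 43.5 and 18.1 RPM, and *Pecam1*, the gene of CD31, at 322.5 and 88.9 RPM, so transcripts of the depleted lineages were present in both libraries. Of 6 adipocyte markers kept, 4 were called lower and 1 higher (583.5 and 209.4 RPM, most of it *Fabp4*, with 543.5 and 173.4 RPM). Of 9 myoepithelial markers, 8 were called lower (3333 and 1090 RPM, with *Acta2* at 1052 and 226.7 RPM). Of 10 luminal secretory markers, 4 were called lower and 2 higher (88597 and 35054 RPM, most of it *Csn2*, with 53087 and 19970 RPM), the higher ones being *Krt8* (268.1 and 789.0 RPM) and *Krt18* (250.4 and 1174 RPM). No marker was at 0 in both libraries. The part of these cell types in the lower levels of *Elmo1*, *Pros1* and *Gas6* and in the higher level of *Tyro3* was not tested.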

How the data were processed

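Poly(A) RNA of lineage-depleted cells was sequenced on a SOLiD instrument as paired-end reads of 35 and 75 bases. Per the methods, the authors mapped reads with the Bowtie pipeline of GeneSifter, filtered mitochondrial, ribosomal and small nuclear RNA and allowed few mismatches. The submitters' processing notes name mm9, Bowtie 0.12.3 and SAMtools 0.1.15, whereas the methods name a human reference. The gene annotation, the use of strand and the handling of reads with several positions were not given in the sources used here. Each file the authors deposited holds the read count of a gene, its RPM (count per 1000000 mapped reads) and its RPKM (RPM per kilobase of a length of their choice). RPM falls for all genes of a library when more of its reads map elsewhere. Rows with no symbol held 0.0408% (WT) and 0.0484% (*Igfbp7-/-*) of the mapped reads and were left out.

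From these values the ratios of (RPM + 0.1), the counting intervals (Clopper-Pearson for ratios, conditional exact for odds ratios, Poisson for levels, all 95% and on counts divided by 2) and the shares of summed RPKM were computed with Python 3.11.15, scipy 1.17.1 and pandas 2.3.3. The limit that a count of 0 allows was taken as 3 reads, which equals 0.0874 RPM (WT) or 0.0857 RPM (*Igfbp7-/-*). It counts single reads, unlike the intervals on read pairs, and is too low if pairs are the unit. Groups were taken from the labels. With 1 library per genotype no test was run. Members and lists were chosen with earlier results of these data known. All members are named, and of each clearance list the gene with the highest RPM in WT and, among genes with at least 10 RPM, those with the highest and lowest ratio. A gene that this rule names is not reported here. Of each marker list the most abundant gene is named, and beside *Tyro3* the 3 genes nearest to its ratio and level. *Ptprc* and *Pecam1* are named as targets of the depletion, *Krt8*, *Krt18*, *Btn1a1*, *Xdh*, *Mfge8*, *Itgb3* and *Itgb5* after their values were seen. The alternatives were TMM factors (edgeR 4.0.16), size factors (DESeq2 1.42.0), other denominators, pseudocounts, minimums, a ratio of 2 and RPKM. The scripts were tested on simulated data. Coordinates and transcripts come from the NCBIM37 genome and its GENCODE annotation.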

Additional observations from a re-analysis of the deposited data

How the results depend on the processing

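Of the 12 alternatives, 8 can alter a member's ratio. Of the 80 ratios recomputed under these, 68 stayed within their counting interval and 0 called ratios changed direction. The number of members called higher was 2 under each alternative, and that called lower was 2 or 3 except with a ratio threshold of 2, where it was 1 (*Elmo1*). Over all genes kept, the counts of 3006 higher and 3231 lower became 4741 and 5279 with no minimum, 1696 and 1672 with a minimum of 10 RPM, and 1352 and 1936 with a ratio threshold of 2. The share of higher among all calls was 48.2%, and it was 62.2% with reads on genes with a symbol as denominator and 37.1% without the 20 highest genes. In the clearance lists together, 17 of 113 genes kept were called higher and 33 lower, beside 21.4% and 23% of all genes kept. With a ratio threshold of 2 these were 8 and 22, beside 9.64% and 13.8% of all genes kept. Of 168 counts of single lists, 14 moved by over 1.5 times. Counts in place of RPKM gave ratios in WT and *Igfbp7-/-* of 0.0738 and 0.109 for *Mertk* to *Axl*, 0.345 and 0.434 for *Gas6* to *Pros1*, 0.157 and 1.09 for *Elmo3* to *Elmo1*, and 0.301 and 0.397 for *Abca1* to *Cd36*. The longest transcript as length, an alternative chosen after seeing the data, gave 0.0732 and 0.108 for *Mertk* to *Axl* and 0.187 and 1.29 for *Elmo3* to *Elmo1*. The lengths behind these values account for the moves. Leaving out a replicate could not be tried with 1 library per genotype. No depth of reads can replace the missing animals, and *Tyro3* in WT rests on 119 reads.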

Other observations

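Among the other engulfment genes, *Rac2* and *Rac3*, and *Vav1* and *Vav2*, were called in opposite directions, as *Elmo1* and *Elmo3* were. *Vav3* was called lower like *Vav1*, while *Dock1*, *Dock5* and *Elmo2* were not called. The genes of this paragraph were picked after their values were seen and were not tested. *Rac2*, the form of Rac typical of blood cells, was covered by 314 reads in WT (9.15 RPM) and by 127 reads in *Igfbp7-/-* (3.63 RPM), a log2 ratio of -1.31 (counting interval -1.79 to -0.92). *Rac3* had 60 reads (1.75 RPM) and 152 reads (4.34 RPM), a log2 ratio of 1.26 (0.69 to 1.97). *Vav1*, the blood cell form of Vav, went from 3.96 to 2.03 RPM (-0.93), *Vav2* from 4.89 to 10.9 RPM (1.14) and *Vav3* from 45.9 to 20.6 RPM (-1.15). *Arhgef16*, an exchange factor that binds an Elmo protein, went from 13.2 to 28.2 RPM (1.09). *Dock2* went from 11.6 to 5.03 RPM, whereas *Dock1* stood at 24.2 and 28.2 RPM (0.22), *Dock5* at 33.7 and 50.5 RPM (0.58) and *Elmo2* at 32.7 and 25.5 RPM (-0.36). These genes lie beside the marker values given above, and the part of those cell types was not tested. In *Igfbp7-/-*, 11 of 14 macrophage and leukocyte markers were called lower (78.6%, beside 23% of all genes kept). Of 10 luminal secretory markers, 2 were called higher (*Krt8* and *Krt18*) and 4 lower (*Csn2*, *Csn3*, *Wap* and *Lalba*). These are 20% and 40%, beside 21.4% and 23% of all genes kept.

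Vitamin K dependent carboxylation, which *Gas6* and protein S need to bind phosphatidylserine, showed no common direction. *Ggcx*, the carboxylase, was covered by 854 reads in WT (24.9 RPM) and by 578 reads in *Igfbp7-/-* (16.5 RPM) (log2 ratio -0.59, interval -0.81 to -0.37). *Vkorc1*, which recycles the vitamin, stood at 12 and 11.3 RPM (-0.08, -0.37 to 0.20) and its paralog *Vkorc1l1* at 9.26 and 16.5 RPM (0.83, 0.55 to 1.12).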
